A study of Saccharomyces cerevisiae with 2 samples.

Results

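The 60 genes described here encode factors that assemble the large (60S) subunit of the yeast ribosome. They were chosen by name, with earlier results of these data known. All 60 have a row among the 6716 genes of the 2 RNA-Seq libraries. Of these libraries, 1 is of a Chinese rice wine strain of Saccharomyces cerevisiae and 1 of the laboratory strain BY4741. The rice wine strain is wild type in the sample labels, which call it YHJ8, whereas the study's text calls it YHJ7, a haploid obtained by sporulation of a brewing isolate. BY4741 is a MATa laboratory strain derived from the reference strain S288c, with a genotype that lists deletions at his, leu2, lys2 and ura3. Both strains grew in YPD, a rich glucose medium, from an initial OD600 of 0.05 in 25 mL, and poly(A) RNA was taken at early stationary phase. Each library pooled 2 biological replicates. With 1 library per strain no difference below has a replicate check, so no p-value is given, and strain cannot be told apart from culture or library.

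A ribosome of yeast is built in the nucleolus from ribosomal RNA and ribosomal proteins by a large set of assembly factors that are not part of the finished particle. Factors of the large subunit act in order. Helicases, methyltransferases and RNA-binding proteins fold and process the precursor RNA in the nucleolus, GTPases and ATPases remodel the particle in the nucleus, and export and cytoplasmic factors complete it. The genes of these factors belong to the ribosome biogenesis regulon, which is transcribed strongly in growing cells and repressed when nutrients run out, and many carry the promoter motifs PAC and RRPE. The repressors Dot6 and Tod6 bind PAC, and Stb3 binds RRPE.

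The promoters of 7 members are shown because they contain the 3 largest and the 2 smallest differences between the strains and the paralogs SSF1 and SSF2. Each line gives 210 bases, from base 250 to base 41 before the start codon, in the direction of the gene. They come from the RefSeq R64 reference genome, which stands for S288c, and the rice wine strain's own promoters were not read. Capitals mark PAC (GCGATGAG) and RRPE (AAAAATTTT), searched on either strand.

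NOG2, chrXIV:723153-723362, minus strand: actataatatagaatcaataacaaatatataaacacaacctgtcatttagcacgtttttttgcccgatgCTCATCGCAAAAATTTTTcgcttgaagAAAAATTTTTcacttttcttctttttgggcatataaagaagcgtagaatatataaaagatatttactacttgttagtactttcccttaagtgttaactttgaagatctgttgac
NOG1, chrXVI:370728-370937, plus strand: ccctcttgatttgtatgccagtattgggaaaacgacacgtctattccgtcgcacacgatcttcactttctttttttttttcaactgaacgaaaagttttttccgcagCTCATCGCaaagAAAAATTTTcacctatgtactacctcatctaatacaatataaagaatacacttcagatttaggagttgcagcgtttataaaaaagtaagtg
NSA2, chrV:414220-414429, minus strand: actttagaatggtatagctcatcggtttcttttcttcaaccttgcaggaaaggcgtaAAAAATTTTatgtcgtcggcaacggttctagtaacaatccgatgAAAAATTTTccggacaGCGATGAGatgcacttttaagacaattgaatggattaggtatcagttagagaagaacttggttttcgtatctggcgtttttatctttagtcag
SSF1, chrVIII:229085-229294, plus strand: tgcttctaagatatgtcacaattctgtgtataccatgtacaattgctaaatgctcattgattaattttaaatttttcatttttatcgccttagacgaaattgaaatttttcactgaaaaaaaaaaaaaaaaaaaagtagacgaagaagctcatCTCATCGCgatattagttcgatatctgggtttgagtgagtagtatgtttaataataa
SSF2, chrIV:1087331-1087540, plus strand: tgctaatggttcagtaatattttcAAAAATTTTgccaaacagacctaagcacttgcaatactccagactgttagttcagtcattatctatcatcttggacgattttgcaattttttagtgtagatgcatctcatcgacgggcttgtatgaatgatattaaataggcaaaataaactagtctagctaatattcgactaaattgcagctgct
DBP6, chrXIV:695345-695554, plus strand: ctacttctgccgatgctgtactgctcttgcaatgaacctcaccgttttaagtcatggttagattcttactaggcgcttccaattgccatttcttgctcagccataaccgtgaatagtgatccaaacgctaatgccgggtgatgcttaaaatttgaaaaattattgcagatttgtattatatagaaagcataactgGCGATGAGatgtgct
RRP15, chrXVI:818073-818282, plus strand: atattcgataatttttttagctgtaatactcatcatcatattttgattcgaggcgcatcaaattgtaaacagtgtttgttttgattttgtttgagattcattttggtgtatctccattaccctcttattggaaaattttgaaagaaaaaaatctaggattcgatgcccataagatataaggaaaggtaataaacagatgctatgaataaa

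NOG2, NOG1 and NSA2 hold both motifs, and in NOG2 the PAC directly adjoins an RRPE. SSF1 and DBP6 hold PAC without RRPE, SSF2 holds RRPE without PAC, and RRP15 holds neither. The row of RRP15 begins before its RefSeq start codon, so its window lies partly inside the row. A match describes these letters and is not shown to be a bound site.

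The libraries held 8168398 fragments on genes in the rice wine strain and 10218989 in BY4741. The strain of a column was taken from its heading, because the table attached to each sample is headed with the other strain's name, and following the attachment would turn every direction below. LEU2, URA3 and MET17, the last not among the labelled deletions, were listed at 0 in the columns headed BY4741, against 64.2, 155 and 25.7 FPKM in the rice wine strain. HIS3 had 188 FPKM in the rice wine strain and 91.6 FPKM in BY4741, and LYS2 had 25.3 FPKM in the rice wine strain and 26.1 FPKM in BY4741, so the labelled lys2 deletion was not seen as missing RNA. FPKM is fragments per kilobase of transcript after scaling of each library. The deposited FPKM follow the deposited normalized counts and are not scaled to equal library totals. Totals of the normalized counts differed by a log2 ratio of 0.33, rice wine strain over BY4741.

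Every one of the 60 genes had a higher level in the rice wine strain than in BY4741. Their median level was 70.1 FPKM in the rice wine strain and 26.7 FPKM in BY4741, whereas the median over all genes was 42.4 FPKM in the rice wine strain and 39.8 FPKM in BY4741. The median difference of the members, on the log2(FPKM + 1) scale and rice wine strain minus BY4741, was 1.47, with quartiles of 1.05 and 1.75 and an SD over members of 0.52. The median difference of all genes was 0. A difference above 0 was found in 49.6% of all genes. On plain FPKM the members were 1.31-fold to 5.85-fold higher, with a median of 2.81-fold.

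**Figure D1:**
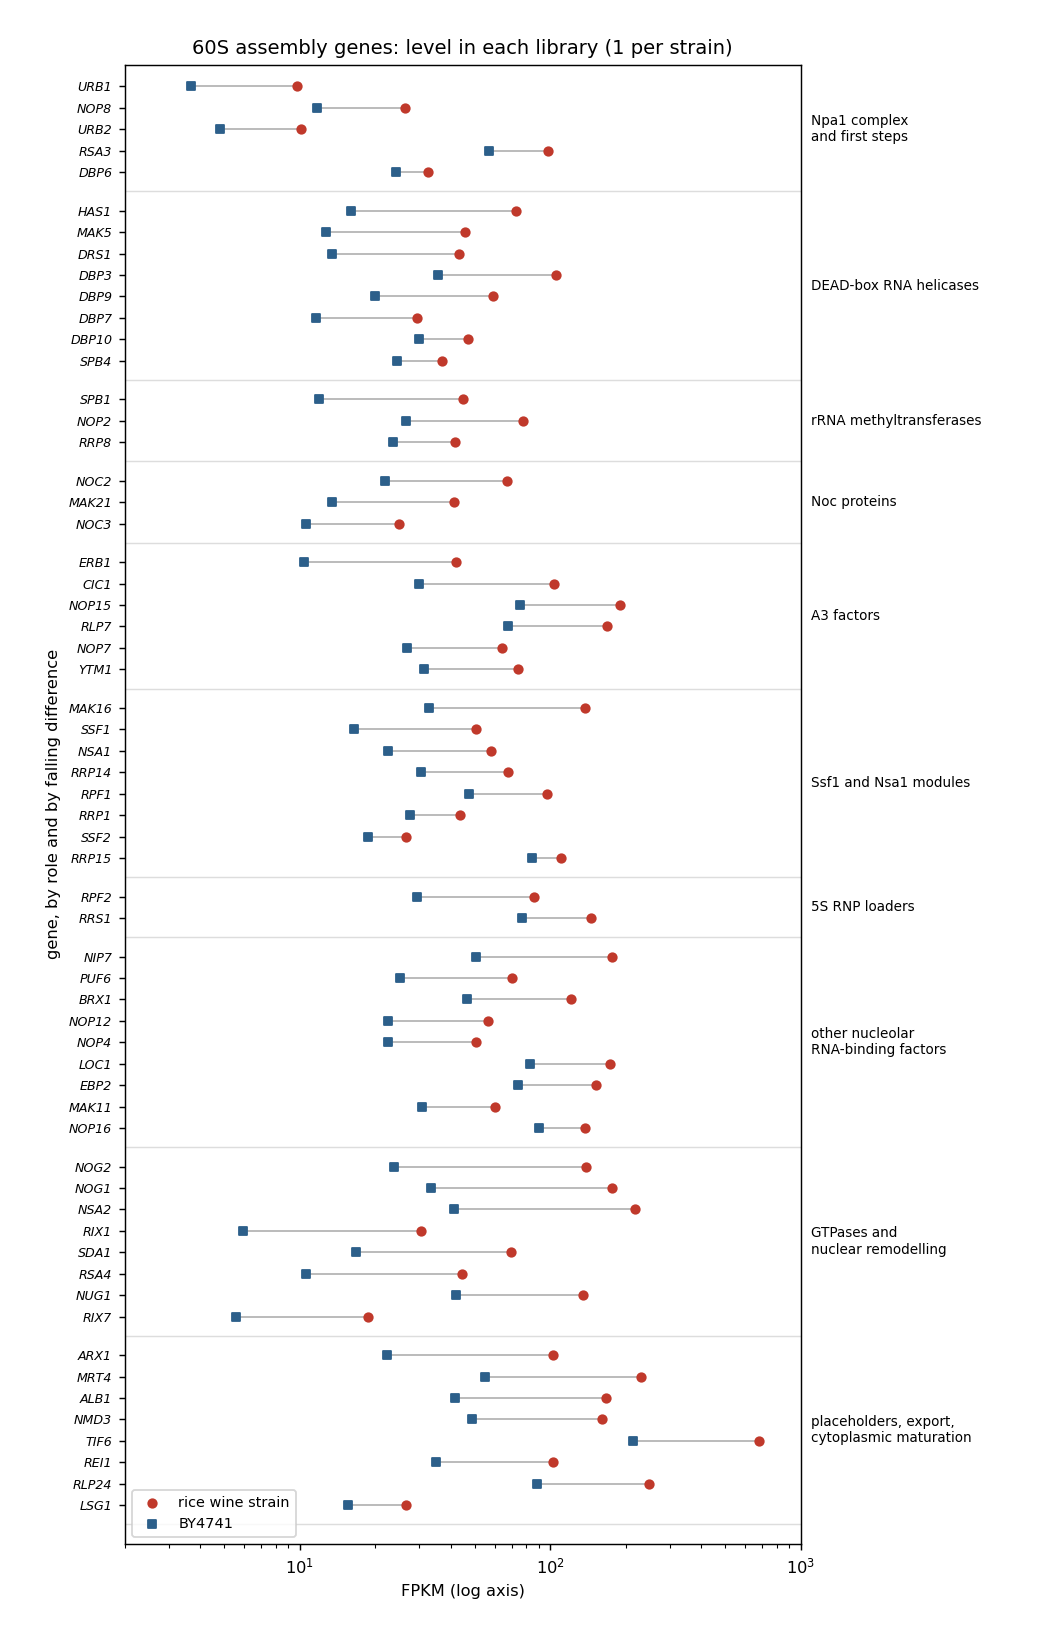
FPKM (log axis) of the 60 assembly genes in the rice wine strain (red circles) and in BY4741 (blue squares), 1 library per strain, grouped by role and ordered by difference, with a grey line joining the values of a gene. The rice wine strain lies above BY4741 in all 60 genes, and the levels span 9.74 to 682 FPKM in the rice wine strain and 3.66 to 214 FPKM in BY4741.

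Of the 60 members, 47 (78.3%) were at least 2-fold higher in the rice wine strain, a difference of 1 or more on this scale. Over all genes that share was 12.4%. No member was at least 2-fold lower, against 9.84% of all genes, and 8 members were at least 4-fold higher, against 2.74% of all genes. Fold limits are differences on this scale, 2 or more for 4-fold, so a gene can pass them on plain FPKM only. Among the 5397 genes whose mean FPKM lay within the members' range, 51% were above 0, 11.9% were at least 2-fold higher, 7.97% at least 2-fold lower and 2.63% at least 4-fold higher. A 1.5-fold limit was passed by 57 members, against 22.4% of all genes and 21.6% of the genes in that range. Of the members, 32 (53.3%) were among the 500 largest differences of all genes, where they made up 6.4%, but only NOG2, at rank 92, was among the largest 100.

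**Figure D2:**
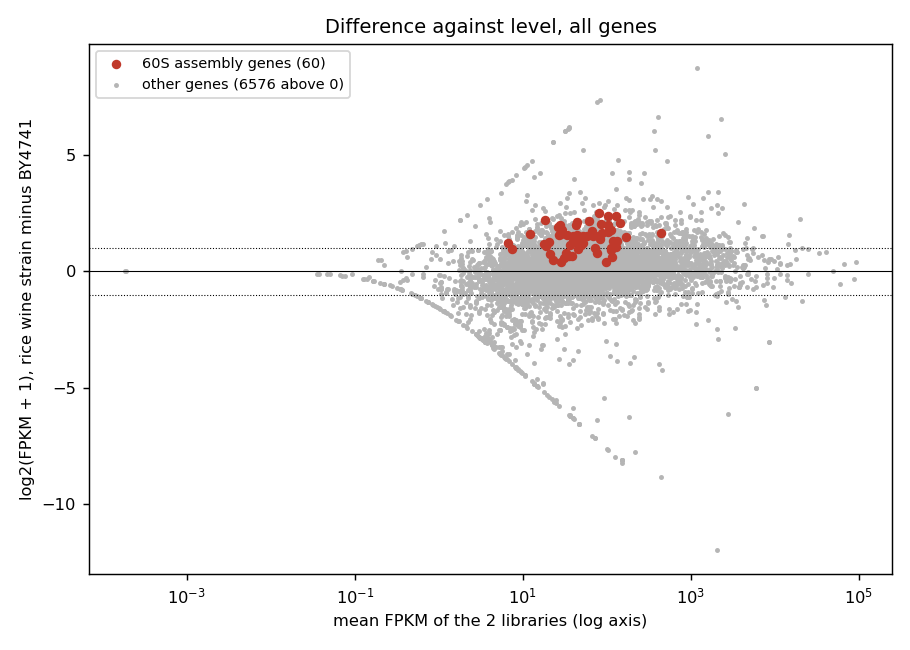
Difference in log2(FPKM + 1), rice wine strain minus BY4741, against the mean FPKM of the 2 libraries (log axis), for the 60 assembly genes (red) and the 6576 other genes above 0 in either library (grey). Dotted lines mark 2-fold differences, and all red points lie above 0, between 0.39 and 2.50.

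Members with high levels in BY4741 also had high levels in the rice wine strain. Across the 60 members, which share the same 2 libraries, Spearman's ρ between FPKM levels of the rice wine strain and of BY4741 was 0.87. Spearman's ρ of the difference was 0.17 with the mean level, -0.15 with the level in BY4741 and 0.13 with the length of the locus. The members were counted with 228 to 3018 fragments in the rice wine strain and with 160 to 1491 in BY4741. The counting standard error of a log2 ratio of FPKM was therefore 0.046 to 0.14. With the scaling as deposited, every member's log2 ratio was at least 4.04 times its error, the lowest multiple being that of SSF2. This error covers counting only. All 60 members together took 0.590% of the gene fragments in the rice wine strain (48156 of 8168398 fragments, 95% Wilson interval 0.584% to 0.595%) and 0.262% in BY4741 (26766 of 10218989 fragments, interval 0.259% to 0.265%), 2.25 times the share.

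The differences depend on how the libraries are scaled. With equal totals in the 2 libraries, the median difference of all genes was -0.30 and the median of the members was 1.14. All 60 stayed above 0, but not all beyond counting error. The lowest, RRP15 at 0.06, lay below its counting SE of 0.087. The members at least 2-fold higher then numbered 33, against 7.64% of all genes. Over all genes the 2-fold differences divided into 513 higher and 1070 lower with this scaling, compared with 836 higher and 661 lower as deposited.

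Among the roles, GTPases and nuclear remodelling factors had the highest median difference, except with a pseudocount of 10, where their 1.53 lay below the 1.58 of the placeholder, export and cytoplasmic factors. The 8 genes of this group were all at least 2-fold higher, with a median of 2.09 and a range of 1.59 to 2.50. On the log2(FPKM + 1) scale 4 were at least 4-fold higher, and SDA1 (4.17-fold) and RSA4 (4.20-fold) passed that limit on plain FPKM only. In the deposited FPKM of the authors' comparison, NOG1 (0.65), NUG1 (-0.19) and SDA1 (-0.12) were under 2-fold. Each shares a joined locus with other genes there. NOG2, a GTPase of nuclear pre-60S particles, had 138.5 FPKM in the rice wine strain and 23.7 FPKM in BY4741, the largest difference of any member (2.50, log2 ratio 2.55 with a counting SE of 0.083). NOG1, a GTPase that stays on the particle from nucleolus to cytoplasm, had 176 FPKM in the rice wine strain and 33.3 FPKM in BY4741. NSA2, a nuclear factor that binds next to Nog1, had 218 FPKM in the rice wine strain and 41.4 FPKM in BY4741. Their differences, both 2.37, were equal to 2 decimals.

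RIX1, a subunit of the Rix1 complex that works with the ATPase Rea1, had 30.5 FPKM in the rice wine strain and 5.90 FPKM in BY4741. SDA1, a nuclear maturation factor, had 69.7 FPKM in the rice wine strain and 16.7 FPKM in BY4741. RSA4, the particle's anchor for Rea1, had 44.3 FPKM in the rice wine strain and 10.5 FPKM in BY4741. These 3 genes thus lay at different levels but close in difference, at 2.19, 2.00 and 1.97. Not all partners in this step did so. Among the other 60S assembly genes listed below, IPI3 had a difference of 2.09, but MDN1, which encodes Rea1, had 1.20 and IPI1 1.18. RIX7, an ATPase that removes Nsa1 from the particle, had the smallest difference of the group, 1.59, with 18.7 FPKM in the rice wine strain and 5.54 FPKM in BY4741. NUG1, the remaining GTPase, had 135 FPKM in the rice wine strain and 42.0 FPKM in BY4741.

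**Figure D3:**
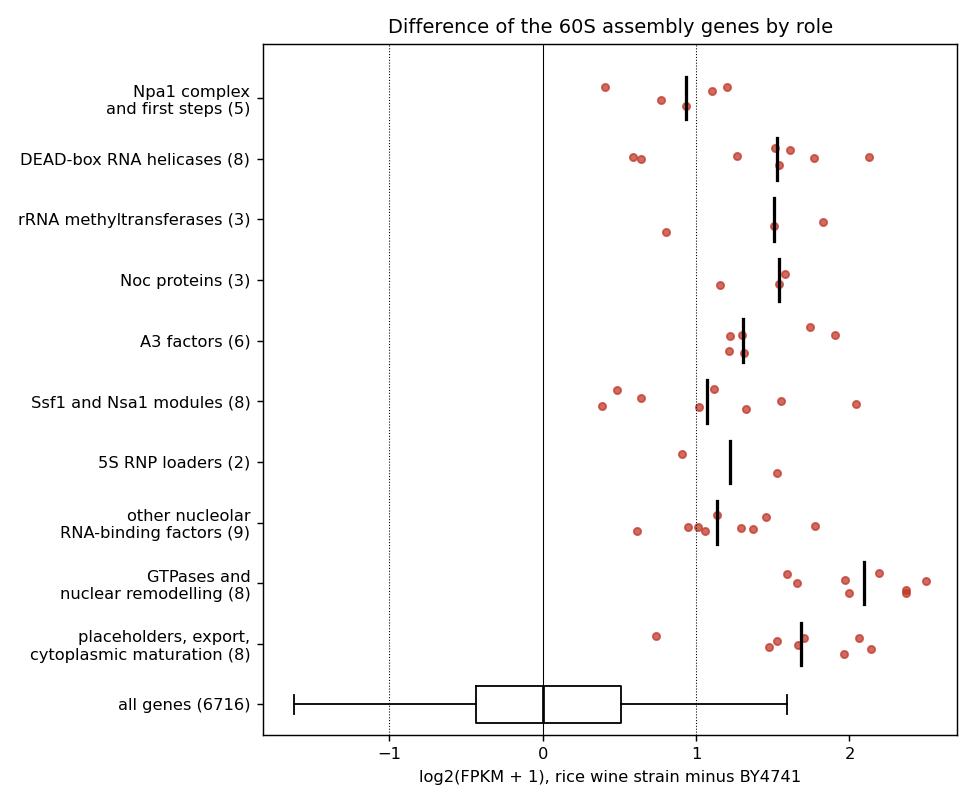
Difference in log2(FPKM + 1), rice wine strain minus BY4741, of each assembly gene (red points) by role, with the median as a black line. The box below gives all 6716 genes (quartiles, with whiskers at the 5th and 95th percentiles), and dotted lines mark 2-fold differences. The GTPases and nuclear remodelling factors lie between 1.59 and 2.50 and the Npa1 complex between 0.41 and 1.20.

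The 8 placeholder, export and cytoplasmic factors had a median difference of 1.68, and 7 were at least 2-fold higher. TIF6, the factor that keeps the 60S subunit from joining the small subunit, was the most abundant member, with 682 FPKM in the rice wine strain and 214 FPKM in BY4741 (difference 1.67). ARX1, a protein that covers the tunnel exit during export, had 102 FPKM in the rice wine strain and 22.3 FPKM in BY4741 (2.14). Its partner ALB1 had 166 FPKM in the rice wine strain and 41.8 FPKM in BY4741 (1.97). MRT4, which holds the place of the stalk protein P0, had 231 FPKM in the rice wine strain and 54.6 FPKM in BY4741 (2.06). LSG1, a cytoplasmic GTPase that releases the export adaptor Nmd3, was lowest in the group, with 26.6 FPKM in the rice wine strain and 15.6 FPKM in BY4741 (0.74). The other 3, RLP24, REI1 and NMD3, lay between 1.47 and 1.70.

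The Npa1 complex, which acts in the first particles, had the lowest median difference, 0.94 over 5 genes, and 2 of these were at least 2-fold higher. In the deposited table of the authors' comparison its median of 0.995 lay just above the 0.987 of the other nucleolar RNA-binding factors. URB1, which encodes Npa1 itself, had the lowest level of any member in the rice wine strain, 9.74 FPKM, and also in BY4741, 3.66 FPKM (1.20). Its partner DBP6, a helicase, had 32.5 FPKM in the rice wine strain and 24.3 FPKM in BY4741 (0.41), and RSA3 had 97.5 FPKM in the rice wine strain and 56.6 FPKM in BY4741 (0.77). In the per-library tables no gene of the Npa1 complex reached the lowest difference of the GTPase and nuclear remodelling group.

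The 8 other DEAD-box helicases, enzymes that unwind RNA, spread widely around a median of 1.53. HAS1, which acts on both subunits, had 73.2 FPKM in the rice wine strain and 15.9 FPKM in BY4741 (2.13), and DBP3 had 105 FPKM in the rice wine strain and 35.7 FPKM in BY4741 (1.54). SPB4, with 37.1 FPKM in the rice wine strain and 24.3 FPKM in BY4741 (0.59), and DBP10, with 46.9 FPKM in the rice wine strain and 29.8 FPKM in BY4741 (0.64), were the 2 helicases of this group under 2-fold. DRS1, MAK5, DBP9 and DBP7 lay between 1.27 and 1.77.

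The 3 rRNA methyltransferases differed among themselves. SPB1, which methylates a ribose of the 25S rRNA, had 44.8 FPKM in the rice wine strain and 11.9 FPKM in BY4741 (1.83), and NOP2, a cytosine methyltransferase, had 77.6 FPKM in the rice wine strain and 26.6 FPKM in BY4741 (1.51). RRP8, an adenine methyltransferase, had 41.8 FPKM in the rice wine strain and 23.5 FPKM in BY4741 (0.80). The Noc proteins, which form successive pairs on early particles, were all at least 2-fold higher. NOC2 had 67.2 FPKM in the rice wine strain and 21.8 FPKM in BY4741 (1.58), NOC3 had 24.8 FPKM in the rice wine strain and 10.6 FPKM in BY4741 (1.16), and MAK21, which encodes Noc1, lay between them at 1.54.

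The 6 A3 factors, which are needed to trim the precursor from the A3 site, were all at least 2-fold higher and covered 1.22 to 1.91. In the deposited table of the authors' comparison YTM1 was under 2-fold, although its locus there is not joined. ERB1 had 41.8 FPKM in the rice wine strain and 10.4 FPKM in BY4741 (1.91). YTM1, its partner in a complex with Nop7, had 74.3 FPKM in the rice wine strain and 31.4 FPKM in BY4741 (1.22), and NOP7 also had a difference of 1.22. NOP15, which binds the internal spacer, had 189 FPKM in the rice wine strain and 75.4 FPKM in BY4741 (1.31). The difference of ERB1 thus stood apart from those of its 2 complex partners. The 5S RNP loaders RPF2 and RRS1 bring the 5S rRNA into the particle as a dimer. RPF2 had 86.4 FPKM in the rice wine strain and 29.3 FPKM in BY4741 (1.53), and RRS1 had 146 FPKM in the rice wine strain and 77.2 FPKM in BY4741 (0.91).

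The 8 genes of the Ssf1 and Nsa1 modules, sets of nucleolar proteins on early particles, held nearly the whole range of the members, 0.39 to 2.04. MAK16 had 138 FPKM in the rice wine strain and 32.7 FPKM in BY4741 (2.04). Its module partner RRP1 had 43.5 FPKM in the rice wine strain and 27.5 FPKM in BY4741 (0.64). RRP15, a partner of Ssf1, had 110 FPKM in the rice wine strain and 84.4 FPKM in BY4741, the smallest difference of all members (0.39). NSA1, RRP14 and RPF1 lay between 1.02 and 1.33.

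The 9 other nucleolar RNA-binding factors had a median difference of 1.14, and 7 were at least 2-fold higher. NIP7 had 176 FPKM in the rice wine strain and 50.6 FPKM in BY4741 (1.78). LOC1, which also takes part in localising ASH1 mRNA, had 173 FPKM in the rice wine strain and 82.6 FPKM in BY4741 (1.06). NOP16 had 138 FPKM in the rice wine strain and 90.0 FPKM in BY4741 (0.61). NIP7 and LOC1 were thus at nearly the same level in the rice wine strain but not in BY4741.

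SSF1 and SSF2 are paralogs that can replace each other in assembly. SSF1 had 50.5 FPKM in the rice wine strain and 16.5 FPKM in BY4741, and SSF2 had 26.5 FPKM in the rice wine strain and 18.7 FPKM in BY4741. SSF1 was the higher paralog in the rice wine strain (483 fragments, against 254 of SSF2), whereas in BY4741 the paralogs were nearly level (249 fragments of SSF1 and 282 of SSF2, a log2 ratio of -0.18 with a counting SE of 0.13). The differences between strains were 1.56 for SSF1 (log2 ratio 1.61, counting SE 0.11) and 0.48 for SSF2 (log2 ratio 0.50, counting SE 0.12). The coding sequences are each 1362 bases long in the R64 reference, differ at 108 positions and are 92.1% identical. The longest identical stretch, shown because fragments inside it cannot be divided between the paralogs, covers 92 bases at chrVIII:229989-230080 (SSF1) and chrIV:1088235-1088326 (SSF2).

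SSF1 and SSF2, plus strand: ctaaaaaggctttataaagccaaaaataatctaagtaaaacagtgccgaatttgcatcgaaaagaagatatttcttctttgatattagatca

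Of the 1313 words of 50 bases in each paralog, 53 (4.04%) also occur in the other, so their division is uncertain there. None of the other 58 members has a 50-base word elsewhere in the genome.

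The members lie on 15 chromosomes, and 4 pairs lie within 10 kb of each other. RRP8 and RRP1, with 4218 bases between them, were both under 2-fold (0.80 and 0.64). SPB4 and LOC1 (2175 bases) had differences of 0.59 and 1.06, NOP16 and NUG1 (5224 bases) 0.61 and 1.66, and URB1 and MRT4 (9328 bases) 1.20 and 2.06. Neighbours therefore did not always have similar differences.

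The rows of 5 members give the same locus as the row of another, overlapping gene, and the sources used here do not say whether counting used strand, so reads of the partners cannot be told apart. YMR290W-A, which shares the locus of HAS1, had 35.9 FPKM in the rice wine strain and 9.36 FPKM in BY4741. SLM6, which shares that of REI1, had 10.8 FPKM in the rice wine strain and 0.145 FPKM in BY4741. YPR142C, which shares that of RRP15, had 17.5 FPKM in the rice wine strain and 9.07 FPKM in BY4741. NOP4 shares its locus with YPL044C, and RRP14 with YKL083W. Without these 5, the median difference of the other 55 was 1.47. In the deposited table of the authors' comparison NOG1, NUG1, SDA1, NOP4 and MAK11 each share a joined locus with other genes. There NUG1 had 548 FPKM in the rice wine strain and 626 FPKM in BY4741 (-0.19), SDA1 had 839 FPKM in the rice wine strain and 911 FPKM in BY4741 (-0.12), and the joined locus of NOG1 had a difference of 0.65. YTM1, which has a locus of its own there, also came out lower, at 0.21. The median in that table was 1.24 over all 60 members and 1.42 over the 55 with a locus of their own, which all stayed above 0.

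PAC and RRPE were more frequent before the members than before other genes. In the 250 bases before the start codon, PAC was found in 37 members (61.7%) and RRPE in 41 (68.3%), whereas 3.26% and 6.14% of the 5881 other genes with such a window held them. Over all 5941 windows the shares were 3.85% for PAC and 6.77% for RRPE. The 2 motifs cannot overlap, since their end letters differ. Both were found in 25 members (41.7%) and in 1.21% of other genes, and neither in 7 members (11.7%) and 91.8% of other genes. With the shorter cores GATGAG and AAAAATTT, both were found in 48 members (80%) and in 4.25% of other genes.

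Within the searched window, measured from the farthest base of the nearest copy, PAC lay 55 to 181 bases before the start codon, with a median of 122, and RRPE lay 86 to 248 bases before it, with a median of 139. In NOG2 PAC was at 181 and the nearest RRPE at 153, in NOG1 they were at 143 and 131, and in NSA2 at 133 and 149, so their order was not fixed. The A3 factors held both motifs in 5 of 6 genes and the GTPases and nuclear remodelling factors in 5 of 8, while the Npa1 complex held both in 1 of 5.

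Members with both motifs had a median difference of 1.59, and 24 of these 25 were at least 2-fold higher. The 16 members with RRPE alone had a median of 1.47, the 12 with PAC alone 1.24, and the 7 with neither 0.94. Of those 7, namely NOC3, NOP4, MAK11, URB2, RSA3, LSG1 and RRP15, 2 were at least 2-fold higher and the highest difference was 1.16. The order depended on the letters searched. With the shorter cores the medians were 1.51 for 48 members with both, 1.83 for 3 with RRPE alone, 0.85 for 8 with PAC alone and 0.95 for the 1 with neither. The 71 other genes with both motifs had a median of 1.08, with 37 (52.1%) at least 2-fold higher, and the 5399 with neither had -0.03 (0.01 where only genes of mean FPKM 10 or more were kept). Of these 71, 24 belong to the related lists below and had a median of 1.53, and the other 47 had a median of 0.61. Members with neither motif, at a median of 0.94, lay above other genes with RRPE alone (0.58) or PAC alone (0.36).

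**Figure D4:**
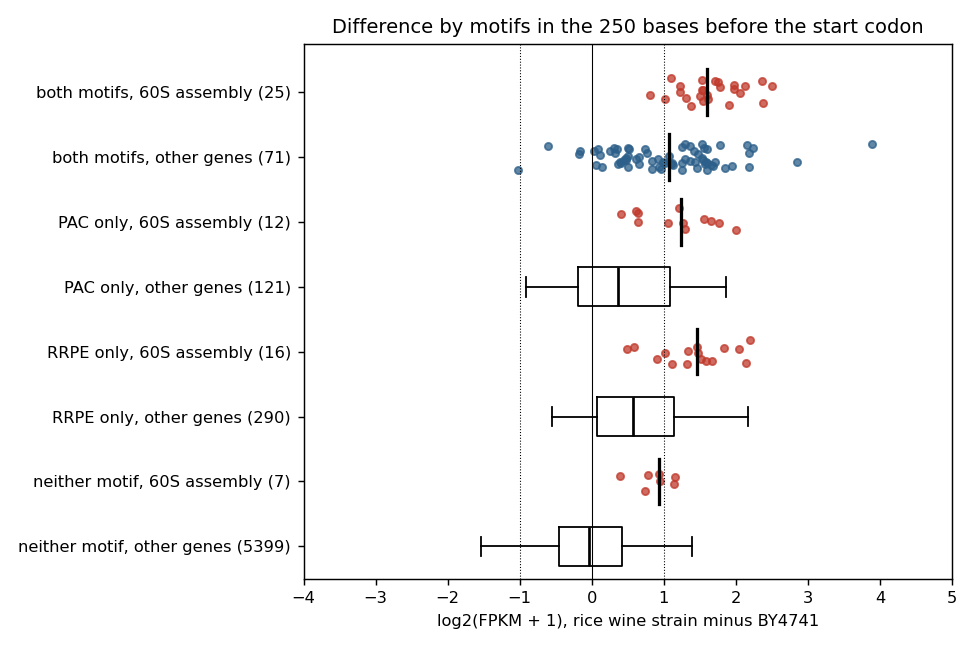
Difference in log2(FPKM + 1), rice wine strain minus BY4741, by the motifs found in the 250 bases before the start codon, for assembly genes (red points) and other genes (blue points, or boxes of the quartiles with whiskers at the 5th and 95th percentiles). Black lines are medians, numbers of genes stand in parentheses, and the members' medians are 1.59 with both motifs and 0.94 with neither. Other genes beyond the axis, 2 with RRPE only and 63 with neither, are not drawn.

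Related genes are given by lists named for their function, in the same libraries. The 35 other 60S assembly genes had a median difference of 1.20, with 33 above 0, 21 higher by 2-fold or more and 0 lower by as much. RRB1, a chaperone of the ribosomal protein Rpl3, was highest, with 177 FPKM in the rice wine strain and 38.3 FPKM in BY4741 (2.18), and FPR3, a nucleolar prolyl isomerase, was lowest, with 219 FPKM in the rice wine strain and 310 FPKM in BY4741 (-0.50). The 58 genes of the small-subunit processome and 40S assembly had a median of 1.30, with 57 above 0 and 44 at least 2-fold higher. NOP58, a core protein of box C/D particles, was highest there, with 168 FPKM in the rice wine strain and 31.6 FPKM in BY4741 (2.37), and the kinase gene RIO1 lowest, with 39.7 FPKM in the rice wine strain and 44.9 FPKM in BY4741 (-0.18). The median of the 60 members was thus close to that of the 40S list, which shares no gene with it.

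The 81 genes of 60S ribosomal proteins, the substrates that these factors assemble, were also all above 0. Their median difference was 1.02, with 43 at least 2-fold higher and a range of 0.31 to 2.02. RPL22B was highest, with 195 FPKM in the rice wine strain and 47.3 FPKM in BY4741, and RPL41A lowest, with 74922 FPKM in the rice wine strain and 60330 FPKM in BY4741. Many of these genes have a near-identical copy, so the value of a single ribosomal protein gene is uncertain. None of the 81 held both motifs and 76 held neither. The 15 subunits and factors specific to RNA polymerase I, which transcribes the rRNA precursor, had a median of 0.23, which was -0.08 with equal library totals, 0.78 in the deposited table of the authors' comparison and 0.81 over genes of mean FPKM 10 or more, and 7 of the 15 were at least 2-fold higher. RRN11 was highest (2.26) and RRN9 lowest (-0.49). The other genes at least 2-fold higher were all subunits: RPA190 (1.70), RPA135 (1.61), RPA49 (2.24), RPA43 (1.39), RPA34 (1.93) and RPA12 (1.39). The subunit RPA14 (0.21) and all factors except RRN11 lay between -0.49 and 0.23. The median of the list thus describes neither set.

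**Figure D5:**
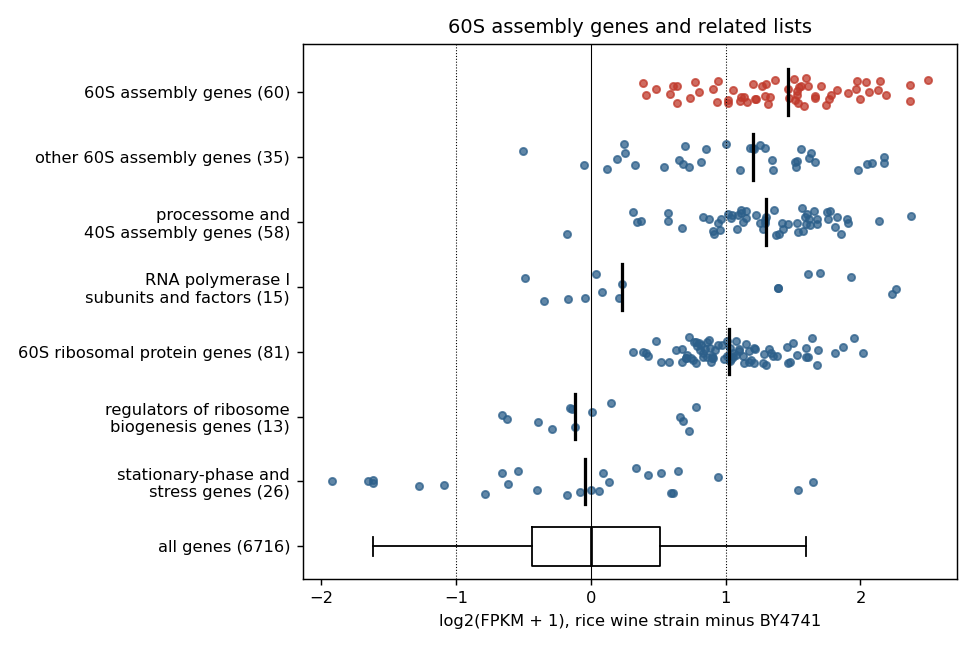
Difference in log2(FPKM + 1), rice wine strain minus BY4741, of the 60 assembly genes (red points) and of genes in related lists (blue points), with medians as black lines and numbers of genes in parentheses. The box gives all 6716 genes (quartiles, with whiskers at the 5th and 95th percentiles). Medians are 1.47 in the 60 assembly genes and -0.11 in the listed regulators.

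The 13 listed genes of regulators, of this regulon and of ribosomal protein genes, did not shift together as the members did. None was 2-fold higher or lower, 6 were above 0 and 7 below, and their median difference was -0.11. These values are RNA levels, and the activity of the regulators was not measured. The repressor gene DOT6 had 226 FPKM in the rice wine strain and 143 FPKM in BY4741 (0.66), and its paralog TOD6 had 39.2 FPKM in the rice wine strain and 24.1 FPKM in BY4741 (0.68). STB3, the RRPE binding protein, had 51.1 FPKM in the rice wine strain and 79.1 FPKM in BY4741 (-0.62). SFP1, an activator of ribosome genes, had 41.8 FPKM in the rice wine strain and 37.5 FPKM in BY4741 (0.15), and MRS6, which binds Sfp1, had 95.8 FPKM in the rice wine strain and 57.5 FPKM in BY4741 (0.73). The genes of the PAC binding repressors thus lay above 0 and that of the RRPE binding protein below.

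In the nutrient signalling branch, the kinase gene SCH9 had 24.7 FPKM in the rice wine strain and 39.6 FPKM in BY4741 (-0.66). The differences of TOR1 (-0.29), TOR2 (-0.16) and KOG1 (0.01), which encode parts of the TOR complexes, were smaller, as was that of the histone deacetylase gene RPD3 (-0.11). Among regulators of ribosomal protein genes, IFH1 had 32.9 FPKM in the rice wine strain and 18.8 FPKM in BY4741 (0.78), CRF1 had 51.6 FPKM in the rice wine strain and 68.2 FPKM in BY4741 (-0.39), and FHL1 had 13.6 FPKM in the rice wine strain and 15.1 FPKM in BY4741 (-0.14).

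The growth state of the cultures was described by 26 stationary-phase and stress genes. Of these, 12 were above 0 and 14 below, 2 passed a 2-fold difference upwards and 6 downwards in the rice wine strain, and the median was -0.04, which was 0.01 in the deposited table of the authors' comparison and -0.37 with equal library totals, where all genes stood at -0.30. Their levels had a median of 465 FPKM in the rice wine strain and 657 FPKM in BY4741, and ranged from 38.5 to 49720 FPKM in the rice wine strain and from 68.9 to 70763 FPKM in BY4741. GPH1, glycogen phosphorylase, had the highest difference (1.65) and HXK1, a hexokinase of low-glucose cells, the lowest (-1.92). Their fragments made up 3.56% of the gene fragments in the rice wine strain and 4.48% in BY4741. The part of growth state in the members' difference was not tested, and in bulk RNA a change in every cell and a change in the share of growing cells cannot be told apart.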

How the data were processed

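The authors mapped reads to the sacCer3 genome with TopHat2 2.0.4 and ran Cufflinks 2.0.2. They deposited, for each library, a normalized count per gene, used here as a signal, and an FPKM value, with 2 biological replicates pooled per library. Fold, p and q columns of their comparison were not used, and its deposited FPKM values served as an alternative. Columns were assigned by heading. The row naming no gene (0.309% of the signal in the rice wine strain, 0.806% in BY4741) was left out.

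Differences are log2(FPKM + 1), rice wine strain minus BY4741, which understates changes of low genes. Fragments are the signal divided by the worth of 1 fragment (1.25 in the rice wine strain, 0.797 in BY4741; 79.5% and 79.9% of values were whole multiples within 0.05). That worth was the largest step within 0.1 of the highest share of whole multiples, and counting errors and intervals depend on it. Values are given for the 8 largest and 8 smallest member differences and for SSF1 and SSF2. They are also given for the highest-level, largest and smallest of each role, the extremes of the other lists and all regulators. SDA1, RSA4, ALB1, NUG1, MDN1, IPI1 and IPI3 were added after their values were seen. So were the genes that overlap members, the members given only as a difference and the RNA polymerase I genes other than RRN11 and RRN9. The members and lists were chosen with earlier results of these data known. Of the members, 56 have the same coordinates in RefSeq R64, and 57 loci begin with ATG. The log2 difference was tested on simulated data with known folds, drawn with the same scaling in both libraries. Only well-counted genes were checked. That test did not cover unequal scaling, joined or overlapping loci or genes of low counts. Python 3.11.15, pandas 2.3.3, NumPy 2.4.6, SciPy 1.17.1 and matplotlib 3.10.9 were used.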

Additional observations from a re-analysis of the deposited data

How the results depend on the processing

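No result has a replicate check. No paired analysis was possible because the strains have a single library each. Of 188 recomputed medians and counts, 167 stayed within their interval or within 1.5 times the main count, 19 moved and 2 changed sign outside their interval. Some of these could hardly move, because a limit on mean FPKM changes a median only where it removes genes. The interval of small groups was also their plain range, so the share that stayed is no measure of robustness. In all, 3 changed sign. With a pseudocount of 10 the median was 1.19 for the members (3 at least 4-fold higher), 1.12 for the Noc proteins, 1.21 for the A3 factors, 1.53 for the GTPases (below the 1.58 of the placeholder and export group), 0.97 for the processome list and 1.32 for members with both motifs. With a pseudocount of 0.1 it was 1.60 for the Noc proteins and 8.01 for the 5 strain-check genes LEU2, URA3, MET17, HIS3 and LYS2. With equal library totals it was 1.14 for the members (3 at least 4-fold higher), 0.98 for the A3 factors, 0.89 for the 5S RNP loaders, 0.82 for the other nucleolar factors, 0.99 for the processome list, 0.69 for the 60S ribosomal proteins, -0.44 for the regulators, 1.30 for members with both motifs and -0.35 for other genes with neither. The RNA polymerase I median changed sign (-0.076 with equal totals, compared with 0.23), as did that of other genes with neither motif (0.0061 at a mean FPKM of at least 10, compared with -0.03) and, within its interval, that of the stationary-phase and stress genes (0.01 in the authors' comparison table, compared with -0.04). The cause was not tested. Of 265 recomputed differences of members given with values, 200 stayed within their counting interval and 63 moved outside it, 38 of them with equal totals, 23 with a pseudocount of 10 and 2 (NOG1 and YTM1) in the authors' comparison table. There, 2 changed sign, NUG1 (-0.19) and SDA1 (-0.12), both in joined loci. Leaving out the 5 overlapping members was chosen after seeing the data. Counting errors were 0.032 to 0.096 with the smaller step.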
